A study of Canis lupus familiaris with 4 samples.

Results

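The 10 genes described here encode immediate early transcription factors, an immediate early survival protein and a pair of Krüppel-like factors: FOS, FOSB, FOSL1, FOSL2, JUN, JUNB, EGR1, IER3, KLF4 and KLF6. They were chosen by symbol, and all 10 were found, with 1 row each, among the 30951 genes of the deposited table. Total RNA came from mesenchymal stromal cells (MSCs) grown from the fat of 4 dogs. The study as a whole asks whether their lyosecretome, the freeze-dried secreted product of such cells, acts against microbes. Each dog gave 1 primary cell line and 1 library, and the labels state no genotype, breed, age or treatment. Cultures were kept in DMEM containing 10% fetal bovine serum with antibiotics and an antifungal, seeded in 24-well plates and collected after 48 h. All 4 libraries form 1 group, so there is no contrast between conditions. The questions asked here are how high each gene stood in these cultures and how far the dogs differed.

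Reads assigned to genes ranged from 7474011 in dog 4 to 22411268 in dog 1. Dog 4 stood apart from the rest: its values differed from those of the other dogs by a median of 0.43 to 0.48 log2 units over 17200 detected genes, against 0.30 to 0.36 among dogs 1 to 3. Its library also had the fewest reads, and the part of depth in these differences was not tested. Of 11 MSC markers, 10 were called above the median detected gene by the test described below, and NT5E (CD73) was called below. Of 7 tested smooth muscle and pericyte markers, 6 were also called above. The share called above was 33.3% of all tested genes and 41.4% of those with a symbol. Of 10 leukocyte markers in the table, 8 were not detected, and AIF1, CD3E, LYZ and MS4A1 had 0 reads in every dog, as did the endothelial genes PECAM1, TIE1 and EMCN. Other genes of these lists had reads and passed in neither direction: the macrophage receptor gene CSF1R had 74.0, 228, 276 and 104 normalized reads in dogs 1 to 4, VWF had 273, 57.2, 204 and 26.0, and KDR had 60.0 to 73.7. The RNA came from whole cultures, so fewer cells expressing a gene and less RNA per cell cannot be told apart.

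Immediate early genes are transcribed within minutes of a stimulus from factors that already sit in the cell, and their messenger RNAs are mostly short-lived. Growth factors and serum act through MAP kinases and the serum response factor SRF with its ternary complex partners, and calcium and cyclic AMP act through CREB. FOS and JUN proteins pair as AP-1, which binds its own element in the genes of proteases, cytokines and cell cycle regulators. FOS itself peaks early and decays, while the Fos-related proteins FOSL1 (FRA1) and FOSL2 (FRA2) appear later and persist. EGR1 binds GC-rich promoters and is held back by the corepressors NAB1 and NAB2. KLF4 and KLF6 are zinc finger factors that bind GC-rich sites and respond quickly to serum, shear or injury.

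A gene's level below is its deposited log2 value minus the median over the detected genes of its library, and detected means reads in at least 2 of the 4 libraries. Normalized reads are reads divided by the size factor of the library. A gene was called above or below where its mean level lay more than 1 log2 unit from that median (limma, Benjamini-Hochberg adjusted p under 0.05 over all 17200 detected genes). All 10 genes had reads in all 4 dogs and were tested. FOSL2, JUN, JUNB, IER3, KLF4 and KLF6 were above, none was below, and FOS, FOSB, FOSL1 and EGR1 passed in neither direction. Of all tested genes 33.3% were above and 35.8% below, and among the 13066 tested genes with a symbol 41.4% were above and 23.7% below. At an unadjusted p under 0.05, FOS and FOSB would be counted below, which makes 2. The median level over the 10 genes was 2.76, against -0.02 over all tested genes. No gene length for the build of the table was used here, so these levels are not corrected for gene length and the order of different genes is not read from them.

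**Figure D1:**
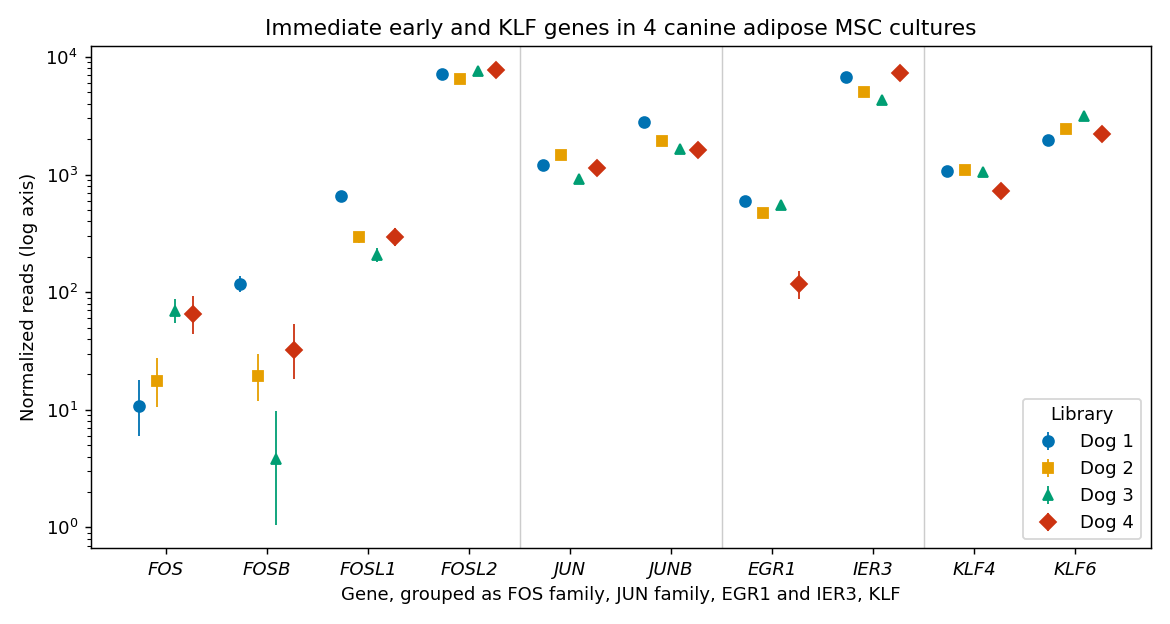
Normalized reads of each gene (log axis) in the 4 libraries, with exact 95% Poisson intervals as bars, which cover counting error only. FOSL2 stays between 6501 and 7686 in all dogs, while FOSB runs from 3.82 in dog 3 to 117 in dog 1 and EGR1 is at 117 in dog 4, against 470 to 592 in the other dogs.

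The FOS family was split between a steady FOSL2 and a sparse, uneven FOS and FOSB. FOS, the founding partner of JUN in AP-1, had 10.8, 17.5, 69.7 and 65.1 normalized reads in dogs 1 to 4. These rest on 15, 19, 73 and 30 reads. Dogs 3 and 4 were high and dogs 1 and 2 low, with no overlap of the counting intervals between the pairs and overlap within each pair. The level of FOS was -1.62 ± 0.86 (SD, n = 4 dogs), which did not pass the test (limma, Benjamini-Hochberg adjusted p = 0.065). Its call changed with the dogs included: without dog 3 (-2.05) or dog 4 (-2.10) it was below. Each such refit takes its median over the genes detected in at least 2 of the remaining dogs, which shifts the levels. With the median unchanged, FOS stood at -1.88 without dog 3 and -1.86 without dog 4.

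FOSB, a close relative of FOS that accumulates with repeated stimulation in neurons, had 117, 19.4, 3.82 and 32.5 normalized reads in dogs 1 to 4, from 163, 21, 4 and 15 reads. Dog 1 was the highest and dog 3 the lowest, and dogs 2 and 4 overlapped within counting error. Dog 1 exceeded dog 3 by 30.7-fold, with an exact 95% counting interval of 11.7 to 114. FOSB had the largest spread of the 10 genes, with a level of -1.77 ± 1.20 (limma, Benjamini-Hochberg adjusted p = 0.0663). In the refits without dog 1 (-2.54) or dog 4 (-2.05) it was below. With the median unchanged, the level was -2.29 without dog 1 and -1.81 without dog 4. Leaving out dog 4 thus hardly moved FOSB itself, and the lower refit value came with the shifted median.

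FOS and FOSB did not follow each other across the dogs. Normalized reads of FOSB were 10.9 times those of FOS in dog 1 (exact 95% counting interval 6.40 to 19.9) and 1.11 times in dog 2 (0.566 to 2.17). In dog 3 they were 0.0548 times (0.0145 to 0.146) and in dog 4 they were 0.50 times (0.25 to 0.959). Gene length cancels when this ratio is compared between dogs. The intervals of dogs 1 and 3 were separated from each other and from the rest, and those of dogs 2 and 4 overlapped. All of them cover counting error only.

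FOSL1 (FRA1), which is induced by sustained ERK signalling, had 654, 293, 206 and 297 normalized reads in dogs 1 to 4. Dog 1 was high, dog 3 low, and dogs 2 and 4 overlapped, the same order of dogs as for FOSB. Dog 1 exceeded dog 3 by 3.17-fold (exact 95% counting interval 2.73 to 3.70). The level was 1.13 ± 0.68 and did not pass the test (limma, Benjamini-Hochberg adjusted p = 0.381).

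FOSL2 (FRA2), a Fos-related factor known for roles in matrix-producing mesenchymal cells and bone, had 7173, 6501, 7566 and 7686 normalized reads in dogs 1 to 4. The highest dog exceeded the lowest by 1.18-fold (exact 95% counting interval 1.14 to 1.23). Its level was 5.50 ± 0.11 (SD, n = 4), above in all 4 dogs (limma, Benjamini-Hochberg adjusted p = 4.0e-09). The SD between dogs was at percentile 5.34 of all tested genes, and it was the only one of the 10 genes whose SD lay under limma's trend for genes of its level (0.28). In the dog RefSeq annotation of the assembly UU_Cfam_GSD_1.0 the lncRNA gene LOC119869693 overlaps FOSL2, and the strand setting of the counting is not known here, which leaves reads of an overlapping gene indistinguishable. Against this steady gene, FOSL1 stood at 0.0912, 0.045, 0.0273 and 0.0387 times FOSL2 in dogs 1 to 4, so the share of FOSL1 to FOSL2 was highest in dog 1.

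Both JUN family genes were called above. JUN, the main DNA-binding partner in AP-1, had 1210, 1463, 919 and 1128 normalized reads in dogs 1 to 4. Dog 2 was the highest and dog 3 the lowest, and dogs 1 and 4 overlapped within counting error. Its level was 2.89 ± 0.27 (limma, Benjamini-Hochberg adjusted p = 4.24e-07, above in 4 of 4 dogs). JUNB, which forms weaker activating dimers and can oppose JUN, had 2827, 1917, 1635 and 1613 normalized reads. Dog 1 was the highest, and dogs 3 and 4 overlapped. Its level was 3.62 ± 0.38 (limma, Benjamini-Hochberg adjusted p = 1.09e-07, above in 4 of 4 dogs).

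The balance of the 2 JUN genes differed between the libraries, with 1 library per dog. Normalized reads of JUNB were 2.34, 1.31, 1.78 and 1.43 times those of JUN in dogs 1 to 4. The exact 95% counting intervals were 2.21 to 2.47, 1.23 to 1.40, 1.64 to 1.93 and 1.28 to 1.60. Dog 1 leaned most to JUNB, and the intervals of dogs 2 and 4 overlapped. These intervals cover counting error only, so a difference between dogs beyond the single libraries was not tested.

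**Figure D2:**
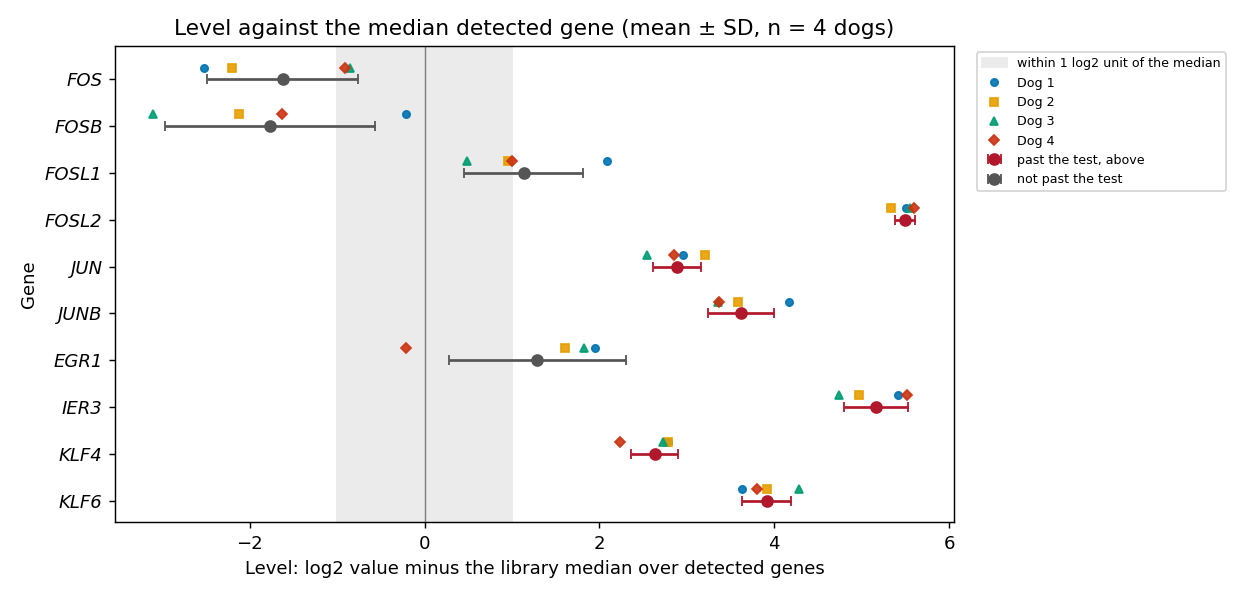
Level of each gene against the median detected gene of its library (log2), as mean ± SD over 4 dogs with the single dogs as small symbols above. The 6 genes in red were above by the test, and FOS, FOSB, FOSL1 and EGR1 in grey passed in neither direction.

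EGR1, the zinc finger factor most often used as a readout of ERK and SRF activity, had 592, 470, 551 and 117 normalized reads in dogs 1 to 4, from 824, 509, 577 and 54 reads. Dog 4 lay apart on the low side, and dogs 1 to 3 were close, with overlap between neighbours in the order. Dog 1 exceeded dog 4 by 5.05-fold (exact 95% counting interval 3.84 to 6.79). Its level was 1.29 ± 1.01 and did not pass the test (limma, Benjamini-Hochberg adjusted p = 0.254). Without dog 4 the refit gave a level of 1.56 and called the gene above (limma, Benjamini-Hochberg adjusted p = 0.00155).

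IER3, which is not a DNA-binding factor but a short-lived protein that modulates survival and NF-kB and ERK signalling, had 6766, 5020, 4297 and 7265 normalized reads in dogs 1 to 4. No neighbours in the order of dogs overlapped within counting error, with dog 4 highest and dog 3 lowest at a ratio of 1.69 (exact 95% counting interval 1.62 to 1.77). With 3350 to 9419 reads per library, the counting intervals of IER3 were narrow. Its level was 5.16 ± 0.37 (limma, Benjamini-Hochberg adjusted p = 7.2e-09, above in 4 of 4 dogs). The SD between dogs was at percentile 51.2 of all tested genes.

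Both KLF genes were called above. KLF4, one of the reprogramming factors and a regulator of quiescence in vascular cells, had 1070, 1089, 1047 and 724 normalized reads in dogs 1 to 4. Dogs 1 to 3 overlapped within counting error and dog 4 lay apart on the low side. Its level was 2.63 ± 0.27 (limma, Benjamini-Hochberg adjusted p = 1.29e-06, above in 4 of 4 dogs), and without dog 4 the SD between dogs was 0.032. KLF6, known from injury responses and fibrosis, had 1951, 2419, 3128 and 2197 normalized reads, with dog 3 highest and dogs 2 and 4 overlapping. Its level was 3.91 ± 0.28 (limma, Benjamini-Hochberg adjusted p = 2.02e-08, above in 4 of 4 dogs).

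Normalized reads of KLF6 were 1.82, 2.22, 2.99 and 3.03 times those of KLF4 in dogs 1 to 4. The exact 95% counting intervals were 1.71 to 1.94, 2.07 to 2.38, 2.79 to 3.20 and 2.68 to 3.44. Dogs 3 and 4 shared a high ratio, which in dog 3 went with the highest KLF6 and in dog 4 with the lowest KLF4.

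The spread between dogs differed widely among the 10 genes. In 9 of them the SD exceeded limma's trend for genes of the same level, which held for 44% of all tested genes, and FOSL2 was the exception. EGR1 had a variance 11.6 times the trend (F test, unadjusted p = 0.00599, Benjamini-Hochberg adjusted p = 0.456), FOSB 4.98 times and FOSL1 4.89 times. Single dogs carried much of this: the SD of EGR1 was 0.17 without dog 4, against 1.01 with all dogs, that of FOSL1 was 0.28 without dog 1, against 0.68, and that of FOSB was 0.75 without dog 1, against 1.20. None of the 10 genes and no gene of the table passed the test of variability after adjustment (limma's trended prior, Benjamini-Hochberg, smallest adjusted p = 0.0796). At an unadjusted p under 0.05, 3 of the 10 passed, against 5.2% of all tested genes. The 10 genes were chosen with earlier results of these data known, so these shares are a description only. A p that misses the threshold does not show that the dogs were alike.

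**Figure D3:**
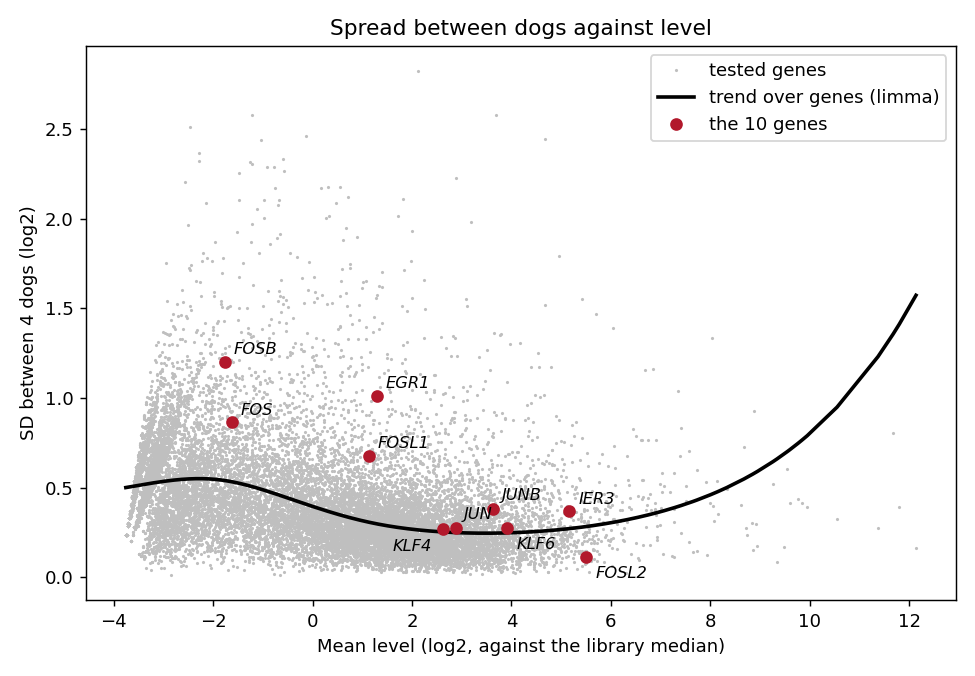
SD between 4 dogs against mean level (both log2) for all 17200 tested genes in grey, limma's trend as a line and the 10 genes in red. EGR1 (SD 1.01), FOSB (1.20), FOS (0.86) and FOSL1 (0.68) lie over the trend, JUN, JUNB, KLF4, KLF6 and IER3 closer to it, and FOSL2 (0.11) under it.

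EGR1 and KLF4 were the genes of the 10 in which 1 library lay apart: the gap to the nearest dog, divided by the range over dogs, was 0.841 for EGR1 and 0.899 for KLF4, both over Dixon's 95% critical value for 4 samples. In both it was dog 4 on the low side. Over all tested genes 5.36% had 1 library apart in any direction, and 1.69% had dog 4 apart and low. EGR2 was also lowest in dog 4, as was EGR3 on few reads. EGR2 had 432, 167, 269 and 65.1 normalized reads in dogs 1 to 4, and EGR3 had 23.0, 19.4, 6.68 and 0 (32, 21, 7 and 0 reads). In dog 4, 3 reads are worth 6.51 normalized reads, so for EGR3 the order of dogs 3 and 4 is uncertain. EGR4 had 1 read in dog 1 and none elsewhere. The corepressor NAB1 ran the other way, with 524, 460, 473 and 1134 normalized reads, and NAB2 had 1027, 857, 709 and 731. Of this list of 5, 4 were tested: NAB1 and NAB2 were called above, EGR3 below and EGR2 neither. Among all tested genes 33.3% were above and 35.8% below, and among those with a symbol 41.4% and 23.7%.

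Other immediate early genes were not all low in dog 4. Of the 26 tested, dog 4 was the highest in 12 and the lowest in 7. The share of all tested genes that were highest or lowest in dog 4 was not computed here. So counts of genes highest in dog 4 are not set against a background. The orphan nuclear receptors NR4A1 and NR4A2, which respond to cyclic AMP and calcium, had 542 and 317 normalized reads in dog 4. In dogs 1 to 3 NR4A1 had 126, 62.7 and 53.5, and NR4A2 had 46.7, 2.77 and 8.59. CCN2, a target of TGF-beta and of mechanical signals, had 3978, 1757, 2470 and 11301 normalized reads in dogs 1 to 4. DUSP1, a phosphatase that switches MAP kinases off, had 654, 654, 658 and 1392, whereas DUSP5, a phosphatase of nuclear ERK, had 144, 61.8, 76.4 and 23.9. Over all dogs, 6 of 7 tested smooth muscle and pericyte markers were called above. Some of these and of the epithelial and mesothelial markers also differed in dog 4. All 7 tested smooth muscle and pericyte markers except CSPG4 were highest there, with a summed 132940 normalized reads against 36169 to 70836 in dogs 1 to 3, and RGS5 was at 0 in all dogs. The 5 epithelial and mesothelial markers in the table summed to 943 normalized reads in dog 4, all of KRT18, against 104 to 329 in the other dogs. CDH1 was at 0 in all dogs and WT1 at 0 in dog 4. Whether other cell types were present was not tested. Nor was the part of cell type, of the lower depth or of the library in the EGR1 and KLF4 values.

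**Figure D4:**
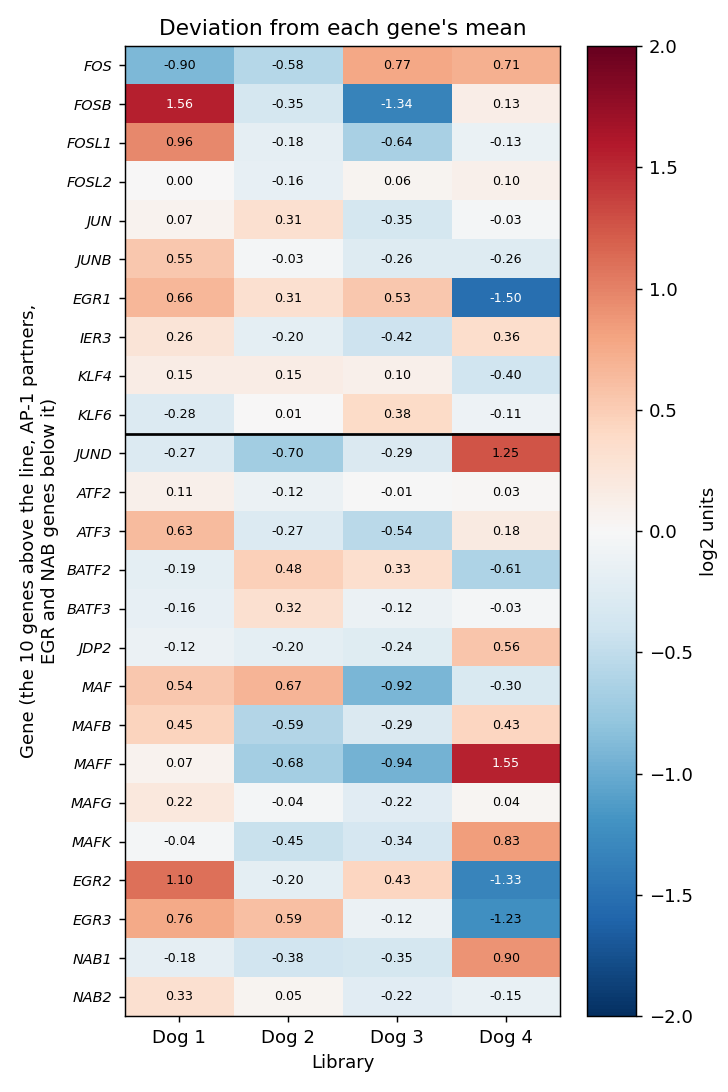
Deviation of each gene from its own mean over 4 dogs (log2 units, red higher, blue lower), with the 10 genes above the line and all tested AP-1 partners, EGR and NAB genes below it. EGR1 and EGR2 are lowest in dog 4, as is EGR3 with 0 reads there. JUND, MAFF and NAB1 are highest in dog 4.

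The other AP-1 and bZIP partners were mixed. Of 13 genes listed, 11 were in the table and tested: 3 were called above (27.3%), 2 below and 6 neither. The shares above and below were 33.3% and 35.8% of all tested genes, and 41.4% and 23.7% of those with a symbol. JUND, the JUN protein known to restrain proliferation, stood at 2.77 ± 0.86, with 876, 656, 878 and 2559 normalized reads in dogs 1 to 4. ATF2, a partner activated by JNK and p38, stood at 2.47 ± 0.09 and JDP2, a repressor of AP-1, at 1.61 ± 0.38. BATF2 (-1.78 ± 0.50) and BATF3 (-2.79 ± 0.22), which work mainly in immune cells, were below. BATF2 rests on 31, 50, 42 and 6 reads in dogs 1 to 4, and BATF3 on 7, 13, 6 and 3. MAFF, a small MAF protein without an activation domain, did not pass at 0.25 ± 1.12 and was highest in dog 4, with 529 normalized reads against 80.2 to 177 in the other dogs.

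Among the other KLF and SP factors, 6 of 13 tested genes were called above (46.2%) and 2 below. The shares above and below were 33.3% and 35.8% of all tested genes, and 41.4% and 23.7% of those with a symbol. KLF1, KLF14 and KLF17 had 0 reads in every dog. The housekeeping factor SP1 (3.60 ± 0.15), KLF3 (3.57 ± 0.24) and the TGF-beta-induced KLF10 (3.43 ± 0.38) were above. KLF15 (-2.17 ± 0.46) and KLF8 (-3.70 ± 0.33) were below. KLF8 rests on 1, 0, 0 and 1 reads in dogs 1 to 4, so its level and SD are near the value of 0 reads. KLF5 (-0.72 ± 0.52) and KLF11 (0.64 ± 0.49) had the largest spreads of this list and passed in neither direction. The median SD between dogs was 0.25 in this list and 0.36 over all tested genes.

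Of the 26 other immediate early genes tested, 15 were called above and none below (limma, with 0 below at an unadjusted p under 0.05). The shares above and below were 33.3% and 35.8% of all tested genes, and 41.4% and 23.7% of those with a symbol. The median level was 1.61, against -0.02 over all tested genes. With the median taken over genes with reads in every dog 4 were below, with a distance of 0.5 it was 3, and without dog 4 it was 1. The matricellular genes CCN1 (5.54 ± 0.28) and CCN2 (4.56 ± 1.17) and the NF-kB modulator NFKBIZ (3.81 ± 0.29) were above. NR4A2 (-1.53 ± 1.93), NR4A1 (-0.10 ± 1.36) and the EGF receptor ligand HBEGF (-1.05 ± 0.38) passed in neither direction. RGS1 had 0 reads in every dog.

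Upstream of the 10 genes lie kinases and promoter-bound activators. Of 18 tested genes of the MAP kinase cascade, 12 were above and 1 below, against 33.3% and 35.8% of all tested genes and 41.4% and 23.7% of those with a symbol. The ERK-activated kinase RPS6KA3 (3.53 ± 0.17) was above, MAP2K6 was below (-2.84 ± 0.87) and RPS6KA1 passed in neither direction (-0.65 ± 0.76). Of 12 tested SRF, ternary complex and CREB genes, 9 were above and none below, against the same shares, nor was any below at an unadjusted p under 0.05 in limma. The 9 became 4 with a distance of 2 log2 units, and 4 with the median taken over genes with reads in every dog. The acetyltransferases EP300 (3.94 ± 0.27) and CREBBP (3.56 ± 0.13) and the actin-regulated SRF coactivator MRTFA (3.80 ± 0.57) were above, as was the muscle-type coactivator MYOCD (1.67 ± 0.73). ELK1 (0.58 ± 0.58) and CREM (-0.61 ± 0.38) passed in neither direction. These are messenger RNA levels, and phosphorylation was not measured.

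Of 12 tested phosphatase and Sprouty genes, 3 were above (25%), 2 below and 7 neither. The shares above and below were 33.3% and 35.8% of all tested genes, and 41.4% and 23.7% of those with a symbol. SPRED1 (3.14 ± 0.28), DUSP1 (2.35 ± 0.54) and SPRED2 (1.66 ± 0.07) were above. DUSP2 (-2.99 ± 0.12) and DUSP10 (-2.41 ± 1.08) were below, and DUSP5 (-0.90 ± 0.81) passed in neither direction. DUSP2 rests on 9, 4, 5 and 2 reads in dogs 1 to 4, and DUSP10 on 64, 4, 1 and 14.

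Known AP-1 target genes stood at very different levels and varied between dogs. Of 16 tested, 8 were called above, 3 below and 5 neither. The shares above and below were 33.3% and 35.8% of all tested genes, and 41.4% and 23.7% of those with a symbol. In 15 of the 16 the SD was over limma's trend, against 44% of all tested genes. The list was chosen with earlier results of these data known, so this count is a description only. None of its genes passed the test of variability after adjustment. The neutrophil attractant CXCL8 (4.96 ± 1.79) and the urokinase receptor PLAUR (3.41 ± 0.56) were above. The collagenases MMP1 (-3.45 ± 0.38) and MMP13 (-3.08 ± 0.70) were below. MMP1 rests on 4, 4, 1 and 0 reads in dogs 1 to 4, and MMP13 on 3, 10, 0 and 6. The cytokines IL6 (-1.21 ± 2.30) and IL11 (-0.13 ± 2.46) passed in neither direction, with 651 and 1566 normalized reads in dog 4, against 3.69 to 40.9 and 22.0 to 131 in the other dogs.

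Handling can induce some heat shock and stress genes together with immediate early genes. The list used here is not limited to genes that handling induces. Of its 12 tested genes, 8 were called above and none below (limma, with 0 below at an unadjusted p under 0.05). The shares above and below were 33.3% and 35.8% of all tested genes, and 41.4% and 23.7% of those with a symbol. With a distance of 2 log2 units 5 were above, and without dog 1 or dog 4 there was 1 below. HSP90AB1 (5.94 ± 0.40), HSPA8 (5.92 ± 0.35) and DDIT4 (4.91 ± 0.60) were above, as was the small heat shock protein HSPB1 (2.59 ± 0.86). BAG3 (0.37 ± 0.23) and HSPA1L (-1.45 ± 0.60) passed in neither direction. HSPA1A and HSPA1B were not analysed here. The summed normalized reads of this list ran from 30810 in dog 4 to 36025 in dog 1. Gene by gene, dog 4 was the highest in 7 of the 12, and its median level was 2.56, against 1.53 to 2.30 in the other dogs. The share of all tested genes highest in dog 4 was not computed. The part of handling in the levels of the 10 genes was not tested.

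The genes whose profile over the dogs lay nearest to FOS were SYNC, KCNK4 and MYO1H, among 11436 genes with a symbol and reads in all dogs. Their deviations from their own means differed from those of FOS by a root mean square of 0.066, 0.11 and 0.14 log2 units over 4 dogs. For FOSB, the gene with the largest SD of the 10, the nearest were HAS2 (0.22), which encodes a hyaluronan synthase, IGFBP3 (0.27) and TRPC4 (0.32). HAS2 deviated by 1.27, -0.02, -1.32 and 0.08 in dogs 1 to 4, and FOSB by 1.56, -0.35, -1.34 and 0.13. With 4 values per gene, such nearness is a description only.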

How the data were processed

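The members and lists were chosen with earlier results of these data known. The submitters' processing notes name the build CanFam3.1 and the tools STAR 2.7.11a, Trimmomatic 0.39, FastQC 0.12.1 and DESeq2. The deposited log2 values were made by the authors with DESeq2's variance-stabilizing transformation, per the file headers and labels. Which read counter and strand setting were used is not given in the sources. Libraries were prepared from 10 ng of RNA with a stranded kit that depletes ribosomal RNA, per the labels' protocols.

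Columns were matched to samples by dog number. The transformation was inverted from the value of 0 reads, and 100% of values came out as whole reads within 0.01 reads. Reads served for depth and intervals (exact Poisson or conditional binomial, 95%), which cover counting error only, since PCR copies are not independent molecules. Tests ran on the deposited values in limma 3.58.1 (R 4.3.3): an intercept-only fit with a trended prior and a distance of 1, and an F test of variance against the prior, both adjusted by Benjamini-Hochberg and tested on simulated data. Each library is a separate dog per its label, so p-values use the spread between single cultures. Named genes were the 10 members, the 3 highest, 2 lowest and 2 most variable detected genes of each list, and the 3 nearest profiles to FOS and to the most variable member; marker lists are given mainly by counts, and a few genes the rule names are not reported here. No sequence or length for the build was used here. Other tools were Python 3.11.15, numpy 2.4.6, pandas 2.3.3, scipy 1.17.1 and matplotlib 3.10.9.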

Additional observations from a re-analysis of the deposited data

Results flagged for a closer look

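A gene appears here because 1 of its 4 libraries lay apart, with a gap to the nearest dog, divided by the range, over Dixon's 95% critical value for 4 samples. Chance marks about 1 in 20 genes taken without selection, and 5.36% of all tested genes were marked. Of 86 named genes 9 were marked, each time by dog 4. Many of the 86 were named for their level or spread in these data, so the 1 in 20 does not hold for them. Genes of the same lists that were not named were marked by other dogs, such as KLF12 (0.983, dog 2 high) and IER5L (0.831, dog 3 low). Among the 10 genes, the ratio was 0.841 for EGR1 and 0.899 for KLF4, both low in dog 4. Dog 4 was high for JDP2 (0.847), NAB1 (0.842), DUSP1 (0.980), DDIT4 (0.867), CD68 (0.844) and KRT18 (0.837), and low for COL1A1 (0.999). COL1A1 had 376360 normalized reads in dog 4, against 647790 to 658940 in the other dogs. CD68 had 19.5 normalized reads in dog 4, against 3.69 to 5.03 in the other dogs.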

How the results depend on the processing

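Across 13 alternatives, the levels of the 10 genes were recomputed 130 times: 115 kept direction and side of the threshold, 15 gained a call, and none lost one or reversed. All 6 genes above stayed above. With the median taken over genes with reads in all 4 dogs, 2 of the 10 were below (FOS and FOSB) and 3729 tested genes were above. With a distance of 0.5, 8 were above and 2 below. On log2 scales with a pseudocount of 1 or 0.5, 2 were below under each. With a distance of 2, 3289 tested genes were above, and when the test was limited to genes read in every dog, 2830 were below, as fewer genes were tested. Leaving out each dog in turn gave 6 to 7 of the 10 above and 0 to 2 below (1 without dog 1, FOSB; 1 without dog 3, FOS; both without dog 4), and 0 to 1 genes past the variability test. The 1 gene, without dog 4, was ENSCAFG00000028987, which has no symbol. Of 364 counts over the other lists, 327 stayed within 1.5 times and 37 did not. The level per length and the within-dog differences per length were not run, since no length for the build was used here. No paired analysis was possible because there is 1 group. Depth limits FOS and FOSB most, with 4 to 163 reads per library.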
